A study of Vitis vinifera with 36 samples.

Results

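A set of 19 grape (Vitis vinifera) genes had a much lower RNA level in harvest-ripe berries than in berries at the onset of ripening, in both cultivars and in both crops of a year. They were 19 of the 28119 genes listed in at least 1 library. They were chosen by FPKM, the fragments per kilobase of transcript scaled to library size. The mean FPKM + 0.1 at E-L 35 had to be at least 4 times that at E-L 38, and the mean FPKM at E-L 35 at least 5, in each of the 4 combinations of cultivar and crop. E-L numbers are stages of the modified Eichhorn-Lorenz scale of vine growth. E-L 35 is the onset of veraison, when berries start to soften and colour, E-L 36 is a berry with intermediate sugar, and E-L 38 is harvest ripeness. Libraries of E-L 35 and E-L 38 chose the members, so values at those stages are descriptions without a test, and the groups tested against each other are those of E-L 36 alone. The model was fitted to all 36 libraries, however, so its estimate of the spread also draws on E-L 35 and E-L 38.

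The study sampled 2 cultivars, Muscat Superior and Victoria, each in a winter and a summer crop. The 12 groups were winter Muscat Superior, summer Muscat Superior, winter Victoria and summer Victoria, each at E-L 35, E-L 36 and E-L 38 with 3 biological replicates. All groups came from 7-year-old grafted vines grown in southern China with a shelter against rain in 2014, and RNA was taken from 50 deseeded berries per replicate, so each library is a pool of skin and flesh. The summer crop grew after pruning and hydrogen cyanamide forcing in February, and the winter crop after pruning, defoliation and a forcing of the terminal bud in August. Crop, season and sampling date cannot be told apart in this design.

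Ripening turns a hard, green, acid berry into a soft, sweet and coloured one. At veraison the berry stops building its early tannins and organic acids, its chloroplasts lose their photosynthetic role, its walls loosen, and sugar and aroma compounds accumulate. Many genes active in the green berry are switched down in the same period. The identifiers of the 19 genes are not paired with names or functions in the sources used here, so no role is given to any of them, and tissue markers could not be looked up to check the labelled pericarp. In such bulk RNA, fewer cells of a type and less RNA per cell cannot be told apart.

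Libraries held 5.62 to 18.6 mega-counts (M) of estimated reads, with a median of 10.6 M. Of the 36 libraries, 3 correlated better with a library of another stage than with their own group. Summer Victoria replicate 1 at E-L 36 was closest to a summer Victoria library of E-L 38 (r = 0.984 over genes, against 0.958 to 0.959 with its own group). Summer Victoria replicate 1 at E-L 38 was closest to a library of E-L 36 (r = 0.981, against 0.969 to 0.981). Each of these replicates thus resembled the other stage, and whether their labels were exchanged was not tested. The timing in summer Victoria is therefore also given without both, and some comparisons at E-L 36 without the library of that stage. The levels and ratios at E-L 38, and the counts of genes by combination, include replicate 1 throughout. Summer Muscat Superior replicate 1 at E-L 36 was closest to a library of E-L 38 (r = 0.982, against 0.962 to 0.976). Replicate pairs were also unequally alike: 8 of 18 winter pairs, and 0 of 18 summer pairs, had a chi-square per degree of freedom below 2. At E-L 36 these near-identical pairs included every pair of winter Victoria, and replicates 1 and 2 of the winter Muscat Superior berries. The others were every pair of winter Muscat Superior at E-L 35, and replicates 2 and 3 of winter Victoria at E-L 38. All 8 near-identical pairs differed by slightly more than counting noise (1.45 to 1.90). The labels call them biological replicates and they were kept as separate samples, but such values do not tell separate berries from repeat libraries of 1 RNA, in which case the winter groups hold fewer independent samples and their errors are too small. Counts of calls with such libraries summed are therefore given for each comparison.

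By mean level, the 19 members were expressed over a wide range at E-L 35, between 5.55 and 279 FPKM per group, and were low at E-L 38, between 0.04 and 41.2 FPKM. At E-L 38, 52 of the 76 group means were below 5 FPKM. In none of the 76 pairs of a member and a combination did the 3 libraries of E-L 35 overlap the 3 of E-L 38. Summed over the members, FPKM at E-L 38 was 76.0 ± 20.3 in winter Muscat Superior and 78.9 ± 17.5 in summer Muscat Superior, and 72.1 ± 16.5 in winter Victoria against 167 ± 34.7 in summer Victoria (SD, n = 3 each). At E-L 35 the sums were 870 ± 20.5 in winter Muscat Superior, whose libraries were near-identical, and 761 ± 122.5 in summer Muscat Superior. They were 914 ± 178 in winter Victoria and 1030 ± 176 in summer Victoria. The summed level at harvest was thus highest in summer Victoria, where 15 of the 19 members also had their smallest ratio of E-L 35 to E-L 38.

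**Figure D1:**
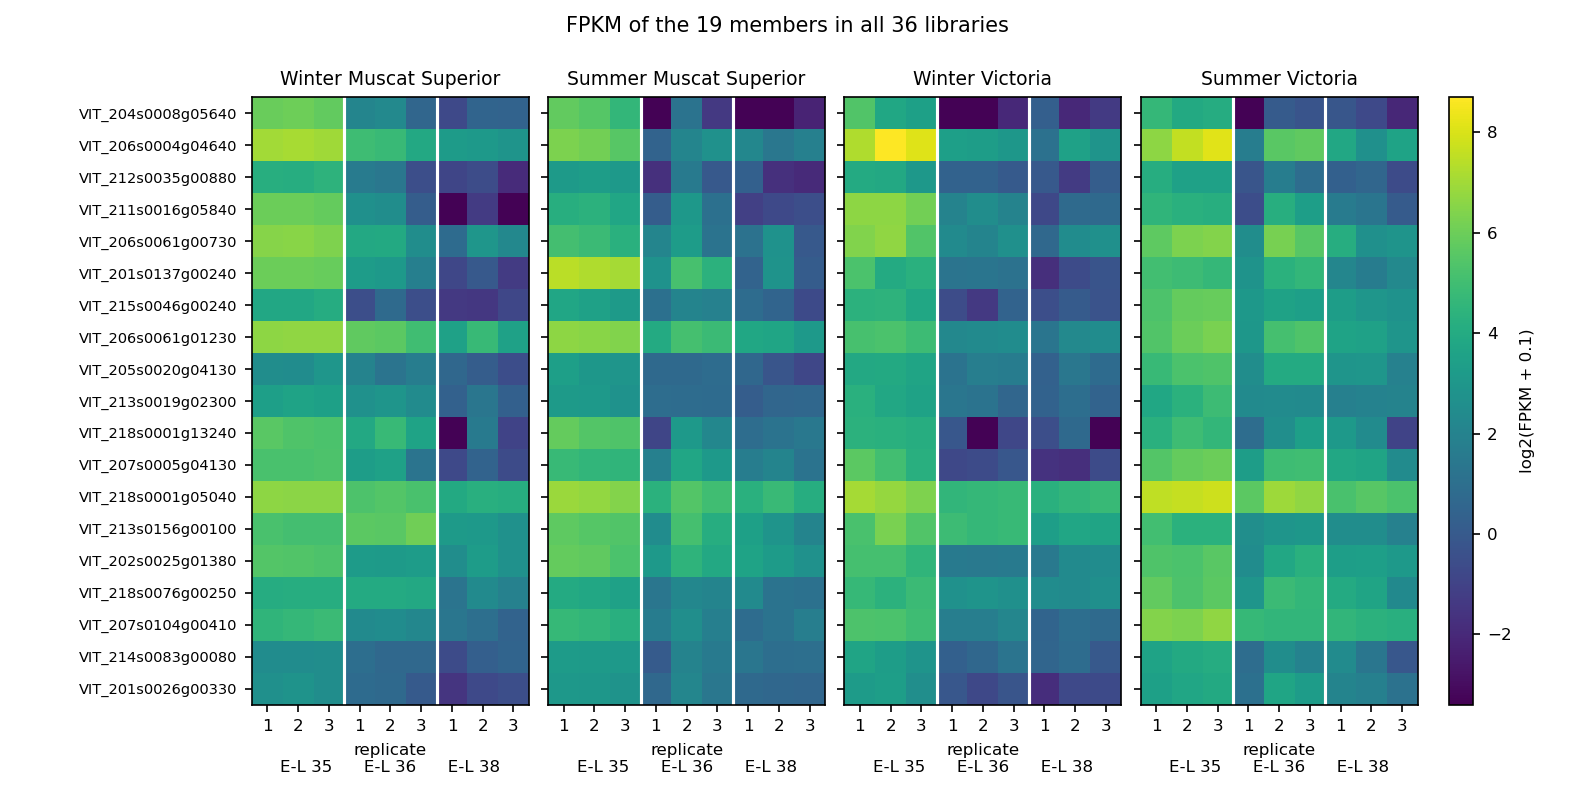
FPKM of the 19 members in every library, as log2(FPKM + 0.1) on the colour scale, with members in rows in order of their smallest ratio and libraries in columns by cultivar, crop, stage and replicate. Levels are high at E-L 35 and low at E-L 38 in all 4 panels. At E-L 36 most members are low in winter Victoria, except VIT_213s0156g00100 (mean 27.3 FPKM) and VIT_218s0001g05040 (25.2 FPKM). In summer Victoria at E-L 36 many members are higher in replicates 2 and 3 than in replicate 1. Others differ little between these replicates, such as VIT_213s0019g02300 (5.08 to 5.23 FPKM).

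The median ratio of E-L 35 to E-L 38 over the members was 13 in winter Muscat Superior and 8.18 in summer Muscat Superior, and 17.1 in winter Victoria against 5.5 in summer Victoria. Of the genes of the whole series, 504 met both conditions in winter Muscat Superior, 162 in summer Muscat Superior, 790 in winter Victoria and 300 in summer Victoria, but 306 met them in both winter crops and 43 in both summer crops. Another 42 genes met them everywhere except in summer Victoria, against 2 to 16 genes for each of the other combinations. The opposite pattern, at least 4 times higher at E-L 38 in every combination with at least 5 FPKM there, was met by 2 genes. Near the limits, the members with the smallest ratios had 4.02 and 4.18, and the nearest genes outside had 3.87 and 3.95. The members with the lowest limiting FPKM at E-L 35 had 5.55 and 6.27, and the nearest genes outside had 4.79 and 3.15.

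VIT_204s0008g05640 had the largest smallest ratio, at 33.0. At E-L 35 it had 62.0, 65.1 and 55.4 FPKM in winter Muscat Superior against 56.2, 46.1 and 24.2 in summer Muscat Superior, and 42.0, 13.9 and 11.2 in winter Victoria against 25.04, 15.4 and 16.8 in summer Victoria. At E-L 38 it had 0.50, 1.33 and 1.28 FPKM in winter Muscat Superior against 0, 0 and 0.12 in summer Muscat Superior, and 1.10, 0.15 and 0.30 in winter Victoria against 0.79, 0.51 and 0.14 in summer Victoria. The gene was therefore close to the detection limit in nearly every ripe library. Its ratio in summer Muscat Superior, 302 by the rule, rests on 1 count at E-L 38 and 1212 counts at E-L 35. The counts themselves, without the added 0.1 FPKM, gave a 952-fold difference after scaling to depth (exact 95% interval 171 to 37620, counting error only).

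VIT_206s0004g04640 came second, with a smallest ratio of 15.7, and was among the most abundant members. At E-L 35 it had 132, 137 and 126 FPKM in winter Muscat Superior against 79.6, 70.5 and 47.6 in summer Muscat Superior, and 155, 409 and 272 in winter Victoria against 99.2, 191 and 288 in summer Victoria. At E-L 38 it had 9.31, 8.39 and 7.09 FPKM in winter Muscat Superior against 4.48, 2.55 and 3.56 in summer Muscat Superior, and 2.08, 11.4 and 7.18 in winter Victoria against 14.3, 6.23 and 12.3 in summer Victoria. Victoria libraries of E-L 35 were spread over a wide range in both crops, whereas winter Muscat Superior libraries lay close together. Every pair of the latter was near-identical, and whether they are repeat libraries of 1 RNA was not tested.

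The other 17 members had smallest ratios between 4.02 and 11.99. In falling order they were VIT_212s0035g00880, VIT_211s0016g05840, VIT_206s0061g00730, VIT_201s0137g00240, VIT_215s0046g00240, VIT_206s0061g01230, VIT_205s0020g04130, VIT_213s0019g02300, VIT_218s0001g13240, VIT_207s0005g04130, VIT_218s0001g05040, VIT_213s0156g00100, VIT_202s0025g01380, VIT_218s0076g00250, VIT_207s0104g00410, VIT_214s0083g00080 and VIT_201s0026g00330. All 19 passed the filter on low counts. VIT_211s0016g05840 had the steepest drop in winter Muscat Superior, with a ratio of 303 by the rule. It had 1483 counts at E-L 35 and 3 counts at E-L 38, a 520-fold difference in counts after scaling to depth (exact 95% interval 178 to 2523, counting error only).

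The members' transcripts had a median length of 1306 bases (477 to 3283), against 1761 bases over all tested genes. Their identifiers carried 17 distinct prefixes, and 2 prefixes were each shared by a pair, VIT_206s0061g00730 with VIT_206s0061g01230 and VIT_218s0001g13240 with VIT_218s0001g05040. Counts were whole numbers (within 0.005) in every library for 16 members, and 72.5% of all tested genes had whole counts in at least 80% of libraries. Those of VIT_215s0046g00240, VIT_218s0001g13240 and VIT_207s0005g04130 had fractions, which arise where reads are shared between genes, so the values of these 3 are less certain. In all, 11 of the 684 member values were 0, and they fell in 3 members.

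Crop differences at the stages that chose the members were as follows. At E-L 35 the median ratio of winter to summer over the members was 1.12 in Muscat Superior and 0.719 in Victoria, against 1.03 and 0.935 over all genes of at least 5 FPKM in either group. VIT_211s0016g05840 stood out there, with 61.5 FPKM in winter against 17.4 in summer in Muscat Superior (ratio 3.51) and 90.5 FPKM in winter against 20.1 in summer in Victoria (ratio 4.50). At E-L 38 the ratio of winter to summer was at most 0.5 for 6 of 19 members in Muscat Superior and 13 of 19 in Victoria. Among all genes of at least 5 FPKM in either group there, it was so for 11.45% and 14.43%. These shares are not like for like with the members. The 6 in Muscat Superior were all below 5 FPKM in both crops, as were some of those in Victoria. The most uneven was VIT_207s0005g04130, with 0.32 FPKM in winter Victoria against 10.8 in summer Victoria (ratio 0.0387).

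The stage in between showed when the drop took place. For each member the share of the log2 drop from E-L 35 to E-L 38 that was already reached at E-L 36 was computed from group means, so that 0% is the level of E-L 35 and 100% that of E-L 38. The median share was 51.3% in winter Muscat Superior and 71.2% in summer Muscat Superior, and 88.0% in winter Victoria against 60.4% in summer Victoria. Thus winter Victoria berries had passed through most of the drop at E-L 36, and winter Muscat Superior berries through about as much as was still to come. The share was higher in winter than in summer Victoria for 17 of 19 members, and lower in winter than in summer Muscat Superior for 15 of 19.

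Single libraries showed how firm these medians were. The median share was 49.4%, 54.1% and 70.3% in the libraries of winter Muscat Superior, and 99.6%, 49.9% and 76.3% in those of summer Muscat Superior. It was 89.96%, 90.2% and 87.9% in winter Victoria, whose libraries were near-identical, and 116%, 48.4% and 47.3% in summer Victoria. The libraries of the 2 crops overlapped in both cultivars. In each summer group replicate 1 was the highest, and it is the library that resembled E-L 38 over all genes. Without replicate 1 of E-L 36 and of E-L 38 the median in summer Victoria was 44.5%, a setting chosen after the data were seen.

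Genes other than the members gave a different order in Victoria. Among genes that met the same limits within a combination, the median share at E-L 36 was 55.4% (485 genes) in winter Muscat Superior, 59.8% (143 genes) in summer Muscat Superior, 72.2% (771 genes) in winter Victoria and 85.1% (281 genes) in summer Victoria. Over all other tested genes, rising or falling, progress was measured differently. The products of the log2 changes from E-L 35 to E-L 36 and to E-L 38 were summed. That sum was divided by the summed squares of the latter change, so genes with large changes weigh most. This progress, which is not a median share, was 61.2% in winter Muscat Superior and 68.5% in summer Muscat Superior. It was 72.4% in winter Victoria and 86.3% in summer Victoria. In Victoria the members were thus further along in winter while other genes were further along in summer. These are descriptions, since the share uses the libraries that chose the members.

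**Figure D2:**
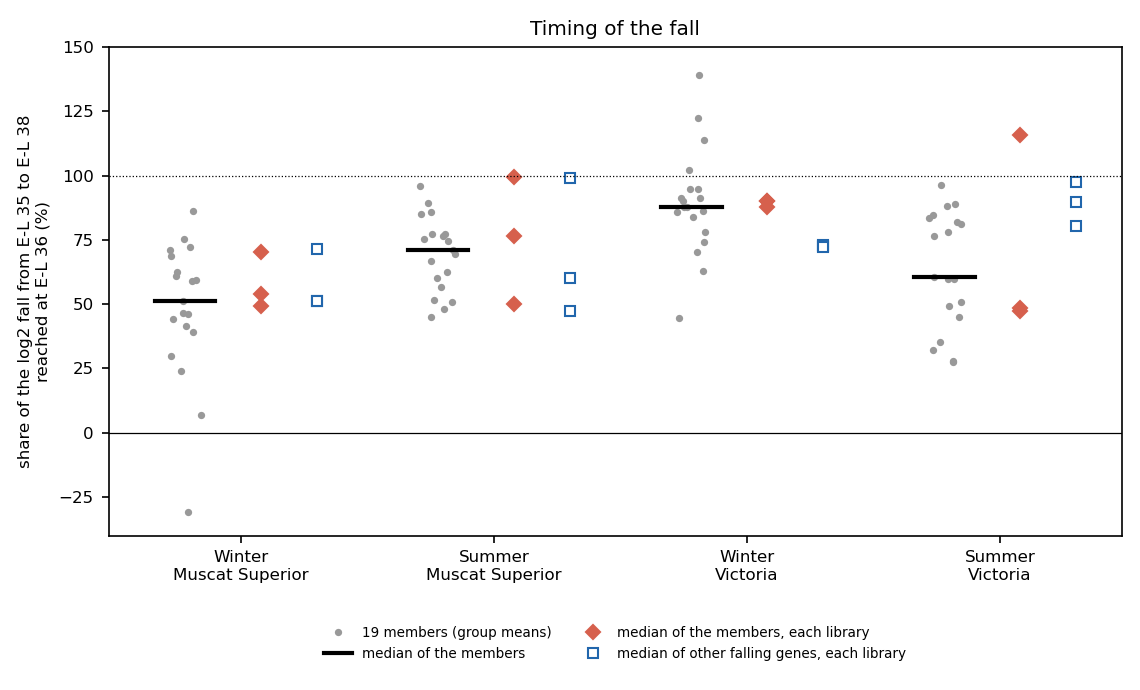
Share of the log2 drop from E-L 35 to E-L 38 that was reached at E-L 36, in percent, by combination of crop and cultivar. Grey points are the 19 members from group means with their median as a bar, diamonds the members' median in each library, and open squares the median of other genes that met the same limits in that combination. In winter Victoria the 3 diamonds lie at 87.9% to 90.2%, above their squares. In summer Victoria replicates 2 and 3 lie at 48.4% and 47.3%, below theirs, and replicate 1 lies at 116%, above its square at 97.6%.

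Among members, E-L 36 lay between the other stages in all 4 combinations for 14 of 19. Exceptions were 4 members whose mean was below that of E-L 38 in winter Victoria, with shares of 102% to 139%. For each of them the libraries of E-L 36 and E-L 38 overlapped or touched there. The 139%, of VIT_204s0008g05640, rests on 1 count at E-L 36. The remaining exception was VIT_213s0156g00100 in winter Muscat Superior. This gene had 50.1, 49.1 and 66.4 FPKM at E-L 36 there, after 37.8, 33.5 and 33.9 at E-L 35 and before 9.13, 8.39 and 6.49 at E-L 38. All 3 libraries of E-L 36 were above the 3 of E-L 35, a share of -30.7%. VIT_218s0076g00250 was next, with 16.0, 15.9 and 14.9 FPKM at E-L 36 in winter Muscat Superior after 17.1, 17.5 and 17.3 at E-L 35, a share of 6.84%. Its libraries of E-L 36 all lay just under those of E-L 35, so that almost the whole drop of this gene came after E-L 36. For both genes the libraries of E-L 35 were near-identical, as were replicates 1 and 2 of E-L 36. They may thus hold fewer independent samples than libraries.

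**Figure D3:**
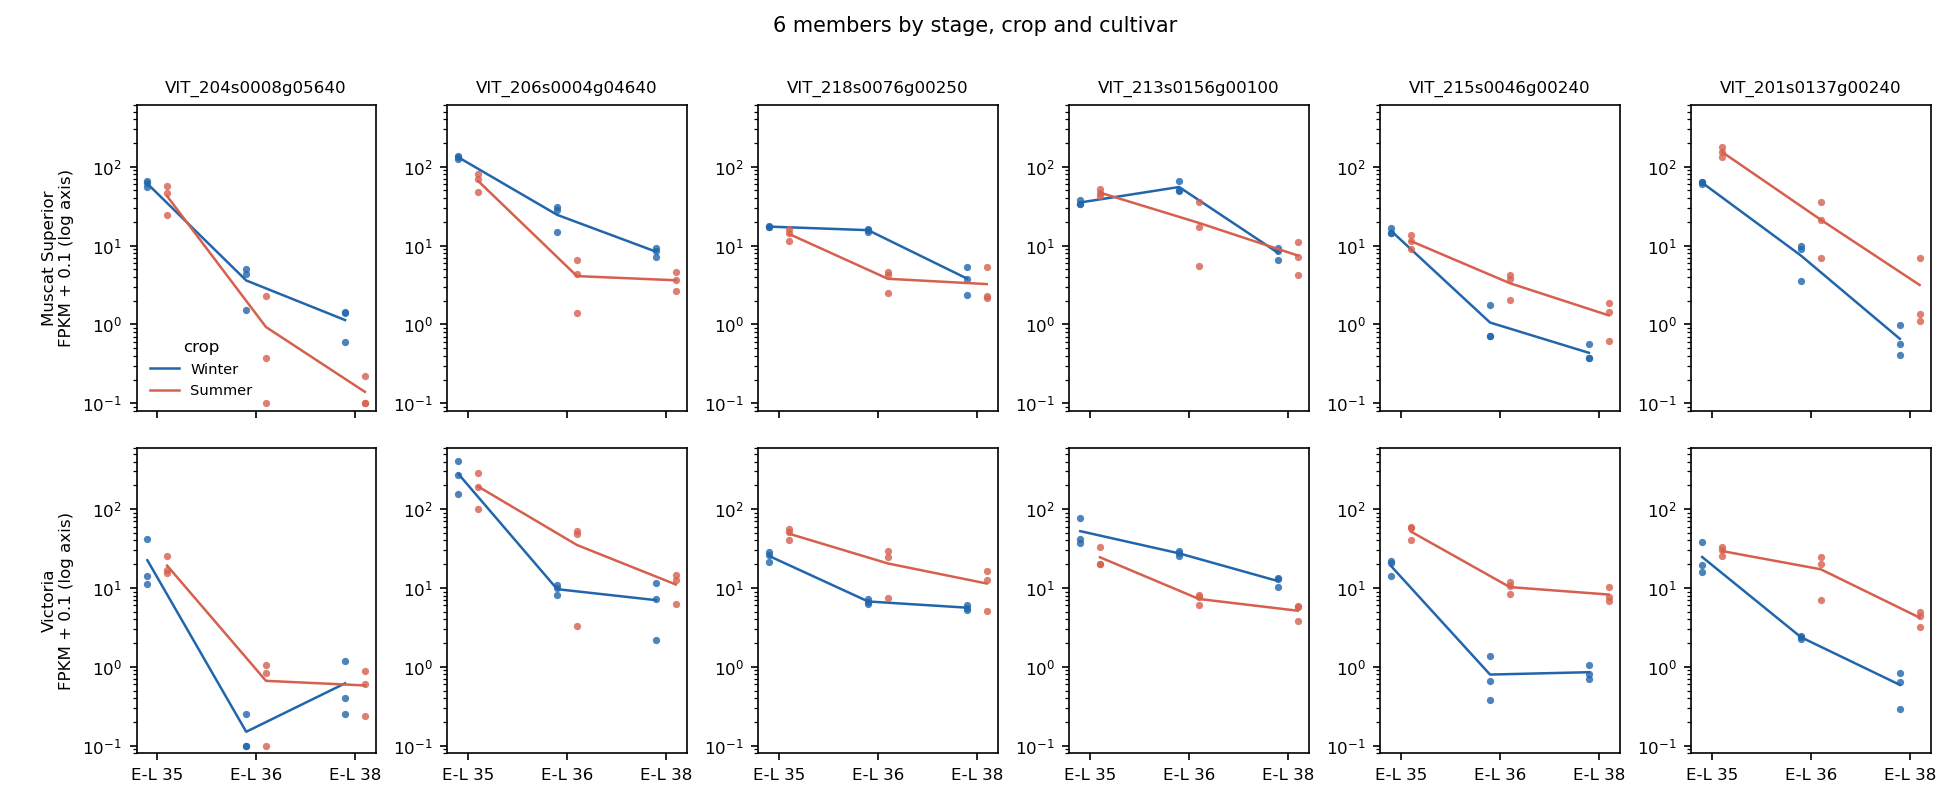
FPKM + 0.1 on a log axis at the 3 stages for 6 members, with Muscat Superior in the upper row and Victoria in the lower row. Points are libraries and lines join group means, winter in blue and summer in red. VIT_213s0156g00100 is higher in winter than in summer at E-L 36 in both cultivars, VIT_215s0046g00240 and VIT_201s0137g00240 are lower, and VIT_206s0004g04640 and VIT_218s0076g00250 are higher in winter Muscat Superior and lower in winter Victoria.

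At E-L 36, most members were lower in winter than in summer berries of Victoria. In the edgeR quasi-likelihood test, 15 of 19 fell and 1 rose in winter Victoria at an adjusted p below 0.05, where 25.9% and 24.9% of the 19736 tested genes were called lower and higher. In either direction 16 of 19 members were called, against 50.7% of all tested genes. The members' median log2 fold change was -2.15, with 18 of 19 below 0, against -0.02 over all tested genes. The libraries of winter and summer Victoria did not overlap for 12 of the members that were lower and for the 1 that was higher, against 28.3% and 27.1% of all tested genes. Summed FPKM over the members was 103, 100.2 and 104 in winter Victoria libraries, against 155, 483 and 446 in summer Victoria libraries, so every winter library lay below every summer library. Without the 2 summer libraries of E-L 36 that resembled E-L 38, 16 fell and 1 rose. Fitted to the 12 libraries of E-L 36 alone, 13 fell and 1 rose, and with near-identical libraries summed 11 fell and 1 rose, VIT_206s0004g04640, VIT_206s0061g00730, VIT_218s0076g00250 and VIT_214s0083g00080 being lost (edgeR adjusted p 0.063 to 0.224).

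VIT_215s0046g00240 had 0.56, 0.28 and 1.25 FPKM in winter Victoria at E-L 36, against 8.18, 11.6 and 10.6 in summer Victoria. No winter library reached a summer library, and the log2 fold change was -3.81 ± 0.38 (SE; edgeR adjusted p = 4.44e-09). VIT_201s0137g00240 had 2.32, 2.35 and 2.14 FPKM in winter Victoria, against 6.93, 19.7 and 24.7 in summer Victoria. Its groups did not overlap either, with replicate 1 the lowest of the summer libraries, and the log2 fold change was -2.85 ± 0.59 (SE; edgeR adjusted p = 0.000221). These were the pair of members whose smaller fall over both cultivars was the largest. The steepest fall in Victoria alone, picked after its values were seen, was that of VIT_207s0005g04130, with 0.48, 0.55 and 0.82 FPKM in winter against 9.87, 30.4 and 31.5 in summer (log2 fold change -5.20 ± 0.63, SE; edgeR adjusted p = 1.47e-07).

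VIT_213s0156g00100 went the other way. It had 29.6, 25.2 and 27.2 FPKM in winter Victoria at E-L 36, against 5.92, 7.51 and 8.00 in summer Victoria, with every winter library above every summer one. Its log2 fold change was 1.99 ± 0.41 (SE; edgeR adjusted p = 0.00021). VIT_206s0004g04640 had 10.6, 9.93 and 8.05 FPKM in winter Victoria, against 3.16, 48.3 and 53.2 in summer Victoria, so that summer replicate 1 lay below all winter libraries. It fell in winter by 1.78 ± 0.60 on the log2 scale (SE; edgeR adjusted p = 0.0144), and the call was lost at an adjusted p of 0.0657 without summer Victoria replicate 2, 0.105 without summer replicate 3 and 0.0507 without winter replicate 3. It was also not called by limma on log2(FPKM + 0.1), at an adjusted p of 0.214. VIT_204s0008g05640 was at 0, 0 and 0.15 FPKM in winter Victoria and 0, 0.96 and 0.73 in summer Victoria, or 1 count against 11, a ratio of 0.0939 (exact 95% interval 0.00218 to 0.646, counting error only), and was not called (edgeR adjusted p = 0.19), although DESeq2 gave an adjusted p of 0.0335.

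In Muscat Superior the crop effect at E-L 36 was mixed. In the same test 6 of 19 members rose and 3 fell in winter, where 21% and 21.6% of all tested genes were called higher and lower, and the other 10 were not called. In either direction this was 9 of 19 members, against 42.6% of all tested genes. The median log2 fold change of the members was 0.53, against -0.02 over all tested genes. All winter libraries were above all summer libraries for 6 members and below them for 1, against 25.2% and 19.4% of all tested genes, and the other 12 overlapped. Summed FPKM was 283, 291 and 217 in winter Muscat Superior and 80.8, 247 and 158 in summer Muscat Superior, so summer replicate 2 lay above winter replicate 3. Without the 2 summer libraries that resembled E-L 38, 4 rose and 5 fell, and the median was 0.05. In the fit to the E-L 36 libraries alone 4 rose and 2 fell, and with near-identical libraries summed 4 rose and 1 fell. The number that fell was 1 without summer Muscat Superior replicate 2 and also 1 without winter Muscat Superior replicate 3.

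VIT_213s0156g00100 rose here too, with 50.1, 49.1 and 66.4 FPKM in winter Muscat Superior against 5.44, 35.1 and 17.3 in summer Muscat Superior. The groups did not overlap, and its log2 fold change was 1.45 ± 0.36 (SE; edgeR adjusted p = 0.00219). It was the only one of the 19 members called higher in winter in both cultivars. VIT_206s0004g04640 had 30.6, 28.0 and 14.6 FPKM in winter against 1.29, 4.25 and 6.46 in summer, again without overlap, a log2 fold change of 2.50 ± 0.67 (SE; edgeR adjusted p = 0.00385). The largest member by ratio, VIT_204s0008g05640, had 4.23, 4.88 and 1.42 FPKM in winter against 0, 2.20 and 0.28 in summer. Its groups overlapped, and its log2 fold change of 1.90 ± 0.75 (SE; edgeR adjusted p = 0.0418) lost its call when any one of 4 libraries was left out (adjusted p 0.0981 to 0.161) and with near-identical libraries summed (adjusted p = 0.116).

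Of the members that fell in both cultivars, VIT_215s0046g00240 had 0.62, 1.64 and 0.61 FPKM in winter Muscat Superior at E-L 36 against 1.97, 4.11 and 3.62 in summer Muscat Superior. All winter libraries lay below all summer libraries, and the log2 fold change was -1.84 ± 0.38 (SE; edgeR adjusted p = 0.000331). VIT_201s0137g00240 had 9.71, 8.86 and 3.49 FPKM in winter against 6.77, 35.7 and 21.0 in summer. Here the groups overlapped, through summer replicate 1, and the log2 fold change of -1.63 ± 0.52 (SE; edgeR adjusted p = 0.0124) was not called without summer replicate 2 (adjusted p = 0.141) or winter replicate 3 (adjusted p = 0.0673), nor with near-identical libraries summed (adjusted p = 0.0514). The third, VIT_201s0026g00330, had an adjusted p of 0.0452 in the edgeR test and lost the call without any one of 5 libraries. Of all tested genes, 13.2% were lower in winter in both cultivars and 13% higher, against 3 and 1 of the 19 members.

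The crop effect at E-L 36 differed between the cultivars for most members. The log2 fold change of winter over summer was higher in Muscat Superior than in Victoria, by the interaction term of the edgeR fit, for 13 of 19 members and lower for none, where 9.23% of all tested genes were called higher and 9.44% lower, or 18.7% in either direction. At an unadjusted p below 0.05 the counts were 14 higher and 0 lower, and in DESeq2 they were 14 and 0. The median difference was 2.91 on the log2 scale, against 0.00 over all tested genes. All 13 were called again without the 2 summer libraries that resembled E-L 38. With near-identical winter libraries summed, which leaves winter Victoria at E-L 36 with 1 library, 8 were called, and in the fit to the E-L 36 libraries alone 10 were called. On the FPKM scale in limma, the median of all genes shifted to 0.10 and 64.9% of the called genes were higher, against 49.4% in edgeR, while the members' median was 2.83.

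For 4 members the crop effect was called in opposite directions: they fell in winter Victoria and rose in winter Muscat Superior, as did 1.11% of all tested genes. These were VIT_206s0004g04640, VIT_213s0019g02300, VIT_218s0001g13240 and VIT_218s0076g00250, of which all but the first are named here after their values were seen. VIT_218s0076g00250 had 16.0, 15.9 and 14.9 FPKM in winter Muscat Superior against 2.43, 4.53 and 4.11 in summer Muscat Superior, and 6.57, 7.09 and 6.23 in winter Victoria against 7.33, 29.0 and 24.6 in summer Victoria. Its log2 fold changes were 1.99 ± 0.39 and -1.55 ± 0.37, and the difference was 3.54 ± 0.54 (SE; edgeR adjusted p = 4.79e-05). VIT_213s0019g02300 had 6.57, 7.31 and 5.32 FPKM in winter Muscat Superior against 1.80, 1.71 and 1.67 in summer Muscat Superior, and 2.47, 2.22 and 1.43 in winter Victoria against 5.20, 5.23 and 5.08 in summer Victoria. In both cultivars the crops were fully apart, and the difference of the log2 fold changes was 3.10 ± 0.36 (SE; edgeR adjusted p = 9.87e-07). The rise of VIT_218s0001g13240 in winter Muscat Superior was the least firm, since it was not called without summer Muscat Superior replicate 1 or 3 or winter Muscat Superior replicate 2 (edgeR adjusted p 0.0518 to 0.0916). With near-identical libraries summed, 3 of the 4 lost one of their calls: VIT_206s0004g04640 in Victoria (edgeR adjusted p = 0.163), VIT_218s0076g00250 in Victoria (0.0691) and VIT_218s0001g13240 in Muscat Superior (0.0581).

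**Figure D4:**
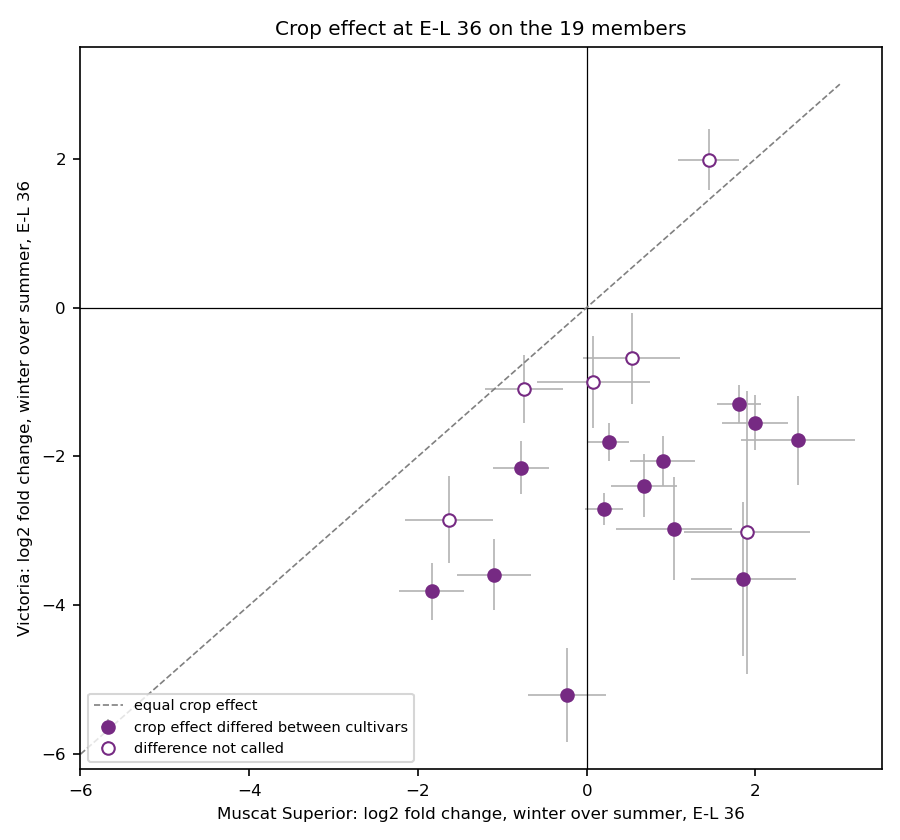
Log2 fold change of winter over summer at E-L 36 in Muscat Superior (horizontal axis) and in Victoria (vertical axis) for the 19 members, with standard errors from edgeR as bars. Filled points mark the 13 members whose crop effect differed between the cultivars, all to the right of the dashed line of equal effect. In Victoria 18 of 19 members lie below 0, and in Muscat Superior 13 of 19 lie above 0.

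The same contrast seen from the cultivars changed with the crop. In winter berries at E-L 36, 10 of 19 members were higher in Muscat Superior than in Victoria and 0 were lower, where 17.6% and 17.4% of all tested genes were called in those directions, or 35% in either. At an unadjusted p below 0.05 the counts were 13 and 0, and DESeq2 called 11 and 0. With near-identical libraries summed 6 were higher, and in the fit to the E-L 36 libraries alone 7. In summer berries 1 member was higher and 10 were lower in Muscat Superior, where 18.8% and 19.2% of all tested genes were called, or 38% in either direction. The median log2 fold change of Muscat Superior over Victoria was 1.22 in winter and -1.29 in summer, against 0.01 and 0.00 over all tested genes. On the FPKM scale in limma the median of all genes in the summer comparison was -0.15, and 31.5% of its called genes were higher against 49.4% in edgeR, while the members' count of 1 higher and 10 lower was the same.

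VIT_204s0008g05640 was higher in Muscat Superior in winter, with 83 counts over the winter Muscat Superior libraries and 1 count over the winter Victoria libraries at E-L 36. This is a 74.6-fold difference after scaling to depth (exact 95% interval 13.03 to 2983, counting error only; edgeR adjusted p = 0.000694). VIT_213s0156g00100 was called higher in Muscat Superior in both crops. In summer its libraries ran from 5.44 to 35.1 FPKM in Muscat Superior and overlapped those of Victoria, at 5.92 to 8.00. Its log2 fold change was 1.08 ± 0.36 in winter (SE; edgeR adjusted p = 0.02) and 1.61 ± 0.41 in summer (SE; edgeR adjusted p = 0.00282). In summer the call rested on Muscat Superior replicate 2, without which the adjusted p was 0.104, and in winter it was lost without Muscat Superior replicate 3 (adjusted p = 0.105), Victoria replicate 2 (0.0676) or Victoria replicate 3 (0.0561), and with near-identical libraries summed (0.241). VIT_215s0046g00240 was lower in Muscat Superior in summer, with a log2 fold change of -1.47 ± 0.31 (SE; edgeR adjusted p = 0.00037), and was not called in winter (0.50 ± 0.49, edgeR adjusted p = 0.453).

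Over both crops, 4 members changed sides: they were lower in Muscat Superior in summer and higher in it in winter, by edgeR's test at each crop, as were 1.28% of all tested genes. They were VIT_213s0019g02300, VIT_207s0005g04130, VIT_218s0001g05040 and VIT_218s0076g00250, named after their values were seen, and each was among the 13 with a called interaction. VIT_207s0005g04130 had 10.1, 11.5 and 2.30 FPKM in winter Muscat Superior against 0.48, 0.55 and 0.82 in winter Victoria, and 3.61, 13.4 and 8.68 in summer Muscat Superior against 9.87, 30.4 and 31.5 in summer Victoria. The winter groups were apart and the summer groups overlapped, and its summer call was lost without any one of 4 libraries (edgeR adjusted p 0.0606 to 0.122). VIT_218s0001g05040 had 40.4, 43.3 and 37.0 FPKM in winter Muscat Superior against 23.9, 25.2 and 26.5 in winter Victoria, and 19.9, 44.1 and 31.3 in summer Muscat Superior against 50.9, 119.9 and 104 in summer Victoria. Its winter call was lost without any one of 5 libraries (edgeR adjusted p 0.0518 to 0.0782). With near-identical libraries summed, the winter calls of VIT_218s0001g05040 and VIT_218s0076g00250 (edgeR adjusted p = 0.29 and 0.206) and the summer call of VIT_207s0005g04130 (0.0507) were lost. VIT_212s0035g00880, VIT_211s0016g05840 and VIT_214s0083g00080 were called in neither cultivar comparison.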

How the data were processed

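RNA-seq of 36 grape berry libraries was analysed from the authors' tables. Per the file headers, the deposited tables give expected counts per gene, FPKM and a transcript length. The submitters' processing notes list Bowtie (no version), and DESeq2 was the authors' tool for differential expression according to the series design. Neither genome build nor annotation nor counter is given in the sources used here. Genes that a table does not list were set to 0, and no identifier (0 of 28119) matched the supplied gene table, so gene-name and marker lists could not be applied and no sequence is shown.

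Members were found from the authors' FPKM by the rule given in the report. The members and lists were chosen with earlier results of these data known. Expected counts were rounded and tested in R 4.3.3 with edgeR 4.0.16 (TMM, filterByExpr, robust quasi-likelihood fit of 12 group means to all 36 libraries, 24 residual degrees of freedom), with Benjamini-Hochberg adjustment over 19736 genes and a threshold of 0.05. All adjusted p-values come from this fit except where a different tool is stated. The standard error is the log2 fold change divided by the square root of F. The script was tested on simulated data. DESeq2 1.42.0, limma 3.58.1 on log2(FPKM + 0.1) or log2(FPKM + 1), other normalization and filters, and left-out or summed libraries were alternatives. Intervals and the floor of 3 counts (0.161 to 0.533 CPM per library) cover counting error only.

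Genes with full statistics were named by rule: the 2 members with the largest smallest ratio, and up to 2 with the largest rise and up to 2 with the largest fall between crops at E-L 36, by the smaller effect of both cultivars. Any other member singled out in the text was picked after its values were seen, also where this is not said there. The labels call the replicates biological.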

Additional observations from a re-analysis of the deposited data

Results flagged for a closer look

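The crop effect at E-L 36, winter against summer, differed between Muscat Superior and Victoria for 13 of the 19 members by the interaction term of the edgeR fit. The log2 fold change in Muscat Superior minus that in Victoria was 5.502 for VIT_218s0001g13240, 4.97 for VIT_207s0005g04130, 4.28 for VIT_206s0004g04640 and 4.01 for VIT_206s0061g00730. It was 3.54 for VIT_218s0076g00250, 3.10 for VIT_213s0019g02300 and 3.07 for VIT_206s0061g01230. For VIT_205s0020g04130 it was 2.96, for VIT_207s0104g00410 2.91 and for VIT_201s0026g00330 2.49. The smallest were 2.07 for VIT_218s0001g05040, 1.97 for VIT_215s0046g00240 and 1.37 for VIT_202s0025g01380. The last, at an edgeR adjusted p of 0.0468, lost its call without any one of 10 of the 12 libraries of E-L 36. VIT_215s0046g00240 lost it without winter Victoria replicate 2 (adjusted p = 0.0587) or winter Muscat Superior replicate 2 (adjusted p = 0.158).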

How the results depend on the processing

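A ratio of at least 8 left 4 members, and leaving out 1 library of E-L 35 or E-L 38 gave 15 to 24. Leaving out 1 library of E-L 36, the median share reached there ran from 49.0% to 53.6% in winter Muscat Superior, 60.4% to 86.6% in summer Muscat Superior, 87.8% to 89.3% in winter Victoria and 46.7% to 76.1% in summer Victoria. A pseudocount of 1 gave 91.9% in winter Victoria. With 1 library of E-L 36 left out, winter Victoria had 1 higher and 13 to 16 lower members, and winter Muscat Superior 4 to 7 higher and 1 to 4 lower. Muscat Superior against Victoria had 7 to 9 higher and 0 lower in winter, and 0 to 1 higher and 8 to 11 lower in summer; the 0 came without summer Muscat Superior replicate 2. The interaction had 11 to 15 higher and 0 lower. The 3 members lower in winter Muscat Superior were 1 by limma on log2(FPKM + 0.1), 1 with near-identical libraries summed and 5 without both summer libraries that resembled E-L 38. Fitted to the 12 libraries of E-L 36 alone, summer Muscat Superior against summer Victoria had 1 higher and 8 lower, and with near-identical libraries summed 1 and 9. With near-identical libraries summed, the 10 members higher in winter Muscat Superior than in winter Victoria were 6 and the 13 of the interaction were 8, with fewer samples in that fit. The other counts stayed within 1.5 times.

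Named log2 fold changes that changed sign were not called before or after. With 1 library left out, Muscat Superior against Victoria in summer ran from -1.58 to 1.51 for VIT_204s0008g05640 and from -0.14 to 0.91 for VIT_201s0137g00240, and the interaction of VIT_213s0156g00100 from -0.97 to 0.26, each changing sign without summer Muscat Superior replicate 2. Muscat Superior against Victoria in winter ran from -0.11 to 1.2 for VIT_215s0046g00240, below 0 without winter Muscat Superior replicate 2. By limma on log2(FPKM + 0.1), VIT_204s0008g05640 had -0.003181 in summer; the causes were not tested. Same-numbered replicates of different groups deviated together little or not at all (r of -0.10 to 0.21, above 0.1 in 2 of 18 pairs). Both values above 0.1 came from summer Muscat Superior with summer Victoria, 0.122 for replicate 1 and 0.205 for replicate 2, against -0.0978 for replicate 3. The numbers were not taken to pair samples. With a replicate block, the count of lower members in winter Victoria was 14, since VIT_214s0083g00080 had an adjusted p of 0.0583, and no other call on a named member changed. Depth limits VIT_204s0008g05640 most, with 0 or 1 count in several ripe libraries.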
